A study of Homo sapiens with 12 samples.

Results

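The genes described here encode the SR proteins, the SR-related splicing coactivators, the heterogeneous nuclear ribonucleoproteins (hnRNPs) and a pair of kinases that act on SR proteins. They were chosen by name in the count tables: every gene named SRSF or HNRNP plus a number or letters, without names of pseudogenes, and PNN, TRA2A, TRA2B, SON, SRRM1, SRRM2, CLK1 and CLK4. The rule gave 46 of the 60645 gene names: 12 SR genes, 6 SR-related genes, 2 CLK kinase genes and 26 hnRNP genes. The rule used gene names alone, but it was set with earlier results of these data known.

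The RNA came from HEK-293T, a transformed human embryonic kidney line, in which the ARID1A gene had been knocked out; all 6 groups share this knockout and the same line. ARID1A is a large subunit of the BAF (SWI/SNF) chromatin remodelling complex, and EWS-FLI1 is the fusion transcription factor of Ewing sarcoma. The knockout cells overexpressed either nothing (empty vector, called no-ARID1A here), full-length ARID1A (called WT) or ARID1A without the disordered region IDR1b (called ΔIDR1b). Each of these states was combined with a further empty vector or with EWS-FLI1 from a plasmid (2 µg, 48 h), which gave 6 groups with 2 libraries each. Overexpression in a single knockout line is what limits these groups as a model. The labels do not say whether the 2 libraries of a group came from separate cultures, so the p-values measure the spread between libraries, which may be technical.

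SR proteins carry RNA recognition motifs and a tail rich in arginine and serine (the RS domain), bind exonic enhancers and help the spliceosome to define exons. CLK kinases phosphorylate RS domains and release SR proteins from nuclear speckles. The hnRNPs coat nascent RNA, often compete with SR proteins and also act in RNA export and stability. Many genes of both families control their own level by including poison exons, which send the transcript to nonsense-mediated decay, or by keeping introns in nuclear transcripts.

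Poly(A)-selected libraries held 11702251 to 14445379 fragments assigned to genes, with 1.75 to 2.40% in mitochondrial genes. ARID1A was at 147 to 164 CPM (fragments relative to library size, scaled by the TMM method) in the no-ARID1A libraries, so RNA from its exons persisted; it was at 1839 to 2287 CPM in WT and 2604 to 2873 CPM in ΔIDR1b. FLI1 was at 0 to 0.146 CPM without the fusion, and with it at 1686 to 1903 CPM in no-ARID1A and ΔIDR1b and at a higher 3456 to 3669 CPM in WT. The 10 embryonic kidney markers summed to 153 to 164 CPM in no-ARID1A, 162 to 169.8 in WT and 151 to 157 in ΔIDR1b. The WT and ΔIDR1b ranges did not overlap, and the no-ARID1A range overlapped each of them. Leukocyte markers summed to 3.94 to 7.999 CPM.

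The RNA of many of these genes was lower in cells given ARID1A, and more of them were lower in cells given ARID1A without IDR1b. With empty vector the WT calls were sensitive to single libraries: 12 genes were called, and 4 or 5 without any 1 of 3 libraries. SRSF2 RNA was 1.92-fold lower in WT and 2.80-fold (empty vector) or 2.89-fold (EWS-FLI1) lower in ΔIDR1b, and CLK1, HNRNPH1, HNRNPH3, HNRNPDL and TRA2B fell alongside. HNRNPH2 rose in both states and SON rose in ΔIDR1b. EWS-FLI1 gave no call among the 41 tested genes. In bulk RNA, less RNA per cell and fewer cells that express a gene cannot be told apart.

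Of the 46 genes, 41 passed the filter on low counts and entered a fit over all 20377 tested genes. A gene was called at an adjusted p under 0.05 (edgeR's quasi-likelihood test, Benjamini-Hochberg over all tested genes). Values in brackets after a gene are log2 fold changes, empty vector first and EWS-FLI1 second, and a replicate named as left out belongs to the vector of its comparison. Gene positions are those in the count tables (GRCh38.p13). In WT against no-ARID1A, 12 of the 41 were called with empty vector, 3 higher and 9 lower, against 11.7% of all tested genes, and 17 with EWS-FLI1, 3 higher and 14 lower, against 18.1%. In ΔIDR1b against no-ARID1A, 27 were called with empty vector, 2 higher and 25 lower, against 33.3% of all genes, and 29 with EWS-FLI1, 4 higher and 25 lower, against 35.9%. ΔIDR1b against WT gave 22 calls with empty vector, 1 higher and 21 lower, against 24.5%, and 19 with EWS-FLI1, 2 higher and 17 lower, against 18.6%. The shares of splicing factor genes called were 29.3 and 41.5%, 65.9 and 70.7%, and 53.7 and 46.3% in the same order, all above the background. Most of the members are abundant, and among the 10692 genes at 10 CPM or more the background was 17 and 26.2%, 43.8 and 46.7%, and 33.3 and 24.2%.

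The excess lay on the falling side. In ΔIDR1b against no-ARID1A, 61% of the members were lower with each vector, against 16.8 and 17.9% of all tested genes, while 4.88 and 9.76% were higher, against 16.4 and 18.1%. For WT against no-ARID1A the lower members (22 and 34.1%) stood against 5.19 and 8.36% of all genes and the higher ones (7.32% with each vector) against 6.5 and 9.72%. For ΔIDR1b against WT, 51.2 and 41.5% were lower, against 13.4 and 10.1%, and 2.44 and 4.88% higher, against 11.1 and 8.48%. The median log2 fold change of the 41 members in ΔIDR1b against no-ARID1A was -0.32 with empty vector and -0.42 with EWS-FLI1, where the median of all genes was 0.00 and 0.02. In WT against no-ARID1A the members' median was near that of all genes with empty vector, at -0.01 for both sets, and -0.12 against -0.02 with EWS-FLI1. The comparisons with empty vector and with EWS-FLI1 share no library: 23 members were lower in ΔIDR1b with both vectors (13.3% of all genes were), and 2 were higher (12.9%). For WT against no-ARID1A these counts were 9 lower (3.52%) and 2 higher (4.84%), and for ΔIDR1b against WT 15 lower (7.74%) and 1 higher (5.86%). No member was called in opposite directions with the 2 vectors. Fewer WT calls were left when any 1 of 3 libraries was omitted: with empty vector the 12 became 5 (1 higher, 4 lower) without no-ARID1A replicate 1, 4 (1 higher, 3 lower) without no-ARID1A replicate 2 and 4 (1 higher, 3 lower) without WT replicate 1. In these fits 12.2, 9.76 and 9.76% of the members stood against 5.03, 3.7 and 3.63% of all genes. The 9 members lower in WT with both vectors became 4, 3 and 3 without the same libraries.

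Markers of other cell types moved in the same comparisons. The 7 fibroblast markers summed to 87.8 to 98.0 CPM in no-ARID1A, 93.0 to 117.8 in WT and 123 to 134.7 in ΔIDR1b, so that ΔIDR1b did not overlap the other states. Of the 5 tested fibroblast markers 2 were higher in ΔIDR1b than in no-ARID1A with each vector, the collagen genes COL1A1 (0.43 and 0.39) and COL3A1 (0.64 and 0.88), while COL1A2, DCN, LUM, PDGFRA and PDGFRB were at 0 to 2.497 CPM in every library. Of the 2 tested neural markers NEFL, a neurofilament gene, was lower (-0.32 and -0.69). Among the kidney markers SALL1 (0.46 and 0.57) and the Wilms tumour gene WT1 (1.00 and 0.87) were higher with both vectors. The epithelial keratin KRT8 was higher in WT (0.44 and 0.55). The part of these markers in the fall of the splicing factor genes was not tested.

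**Figure D1:**
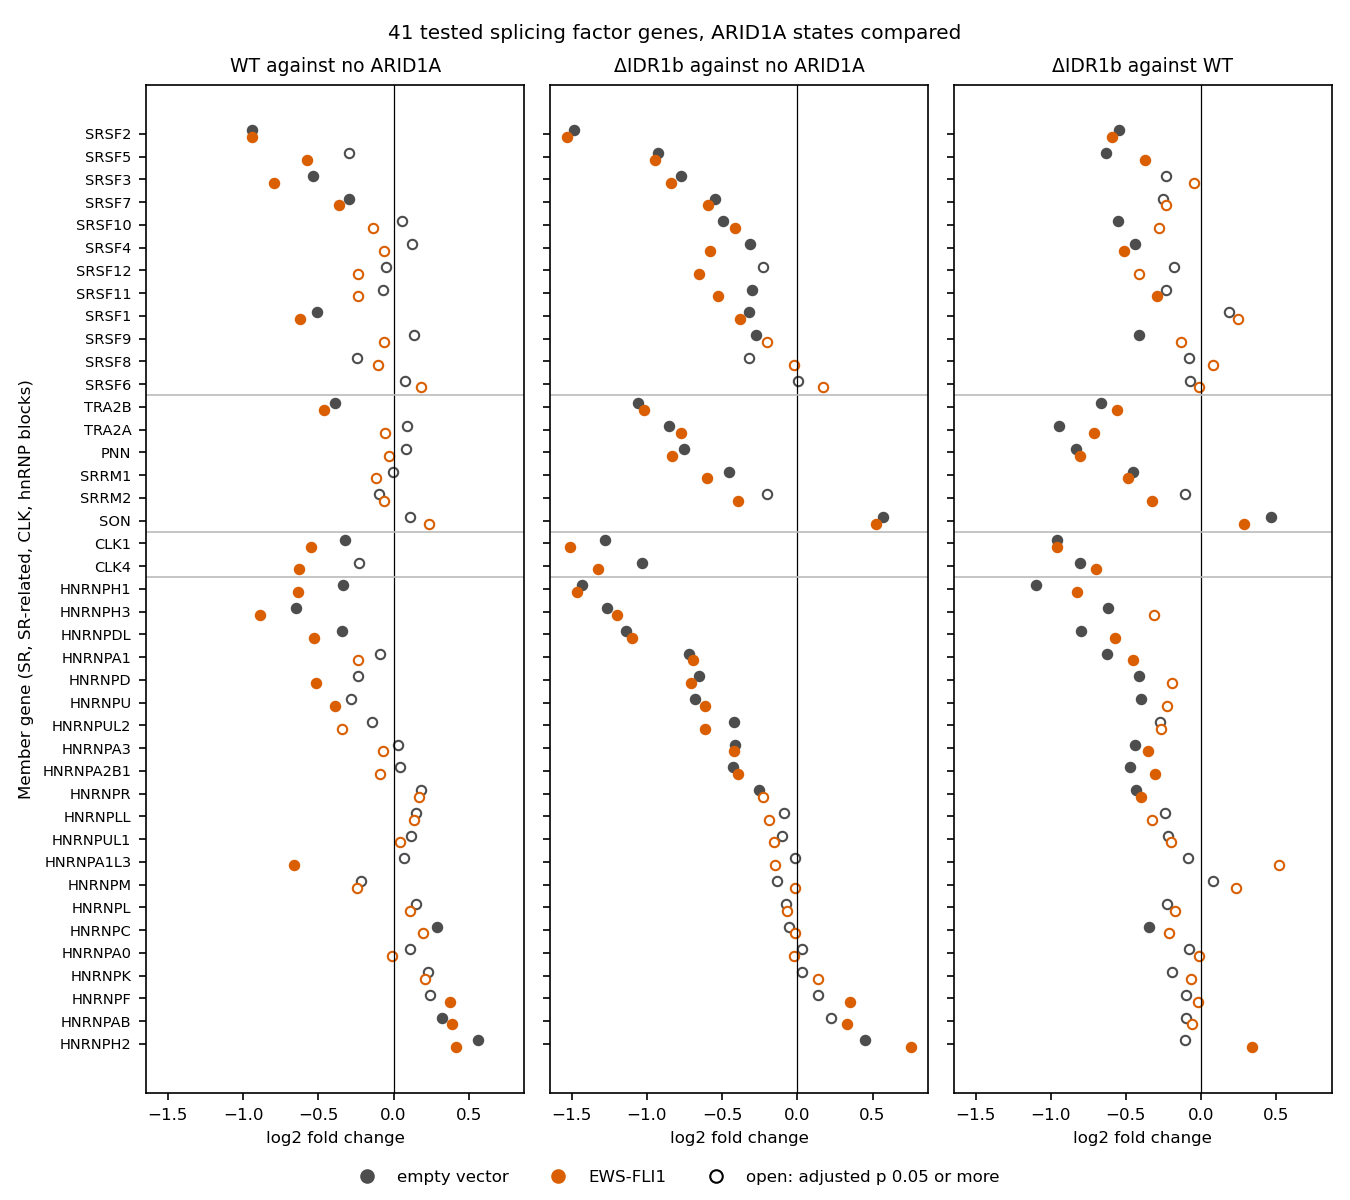
The log2 fold change of each of the 41 tested genes (rows, in blocks of SR, SR-related, CLK and hnRNP genes) in 3 comparisons of ARID1A states; grey points are cells with empty vector, orange points cells with EWS-FLI1, and filled points have an adjusted p under 0.05. In ΔIDR1b against no-ARID1A the filled points lie left of 0 for 25 genes with each vector, and HNRNPH2 and SON lie to the right.

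To show the DNA in front of genes that moved, the stretches directly upstream of the annotated starts of CLK1 and TRA2B, which fell in all 6 comparisons of states, and of SON and HNRNPH2, which rose, are given from RefSeq (GRCh38.p14). They run 5′ to 3′ on the gene's strand and hold no annotated exon. Capitals mark every match, on either strand, of GGAA, the core bound by ETS factors such as FLI1. They also mark the GC box GGGCGG and, as a further promoter element, the motif CCAAT; a match on the other strand reads as the reverse complement. The CLK1 stretch lies at chr2:200864692-200864908 on the minus strand, that of TRA2B at chr3:185938104-185938264 on the minus strand, that of SON at chr21:33542893-33543037 on the plus strand and that of HNRNPH2 at chrX:101408013-101408221 on the plus strand.
CLK1: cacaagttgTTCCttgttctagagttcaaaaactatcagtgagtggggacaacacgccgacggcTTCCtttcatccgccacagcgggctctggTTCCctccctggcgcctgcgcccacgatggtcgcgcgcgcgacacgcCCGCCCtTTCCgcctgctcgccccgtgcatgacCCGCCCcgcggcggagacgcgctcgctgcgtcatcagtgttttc
TRA2B: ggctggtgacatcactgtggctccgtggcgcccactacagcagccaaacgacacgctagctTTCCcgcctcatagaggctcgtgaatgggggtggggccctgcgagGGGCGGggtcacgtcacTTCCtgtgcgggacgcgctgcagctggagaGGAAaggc
SON: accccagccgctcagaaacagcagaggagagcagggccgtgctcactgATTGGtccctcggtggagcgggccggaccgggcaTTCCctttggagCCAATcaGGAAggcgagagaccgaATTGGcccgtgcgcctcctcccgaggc
HNRNPH2: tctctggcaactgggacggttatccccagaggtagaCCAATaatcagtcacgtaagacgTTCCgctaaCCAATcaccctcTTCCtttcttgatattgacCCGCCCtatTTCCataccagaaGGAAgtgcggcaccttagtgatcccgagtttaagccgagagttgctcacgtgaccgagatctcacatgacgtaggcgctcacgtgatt
Both kinds of gene hold GGAA: 4 matches in CLK1, 3 in TRA2B, 2 in SON and 4 in HNRNPH2. CCAAT has 3 matches in SON, 2 in HNRNPH2 and none in CLK1 and TRA2B, and the GC box has 2 in CLK1, 1 in TRA2B, 1 in HNRNPH2 and none in SON. These 4 stretches are examples and do not stand for rising and falling genes: the stretch before SRSF3, which fell in both states, holds 2 CCAAT matches and no GC box.

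Over the 250 bases upstream of the start, 37 of the 41 tested members had an entry in the RefSeq table. GGAA was found in 91.9% of them and in 92.4% of the 11160 tested protein-coding genes with an entry, and the longer ETS site CCGGAAGT, which contains GGAA, in 8.11% against 6.63%. Tandem GGAAGGAA, a short form of the repeats that EWS-FLI1 is known to bind, was in 2.70% against 2.89%. GC boxes were in 64.9% against 67.1%, CCAAT in 48.6% against 34.6% (and in 40% of the 20 members with an entry that were lower in ΔIDR1b with both vectors) and TATAAA in 13.5% against 5.52%; the cAMP response element TGACGTCA was in 0 of the 37 and in 2.76% of the coding genes. The median GC content was 65.6% in the members and 65.2% in the coding genes. These letters describe the windows and say nothing of binding.

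By level per kilobase of annotated exon, averaged over the 12 libraries, HNRNPA1 led the hnRNP genes at 248 CPM per kb and HNRNPA1L3 was the lowest tested one at 4.64. SRSF11 was the highest SR gene at 81.2 and SRSF12 the lowest at 5.59 CPM per kb. Among the SR-related genes SRRM2, a large scaffold of nuclear speckles, was highest at 130.2 and TRA2B lowest at 16.6 CPM per kb, and CLK1 was at 33.6 against 5.72 for CLK4. The exonic length counts bases of every annotated transcript, so genes with long alternative exons, TRA2B among them, read low on this scale. Together the 46 genes held 1.72 to 1.80% of all counts in the no-ARID1A libraries, 1.44 to 1.64% in WT and 1.35 to 1.37% in ΔIDR1b, and the 3 ranges did not overlap.

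The kinase genes CLK1 and CLK4, whose products phosphorylate RS domains, had the lowest median log2 fold change of the 4 classes in ΔIDR1b against no-ARID1A, -1.16 with empty vector and -1.42 with EWS-FLI1. CLK1 (chr2:200853009-200864691, minus strand) was at 234 and 253 CPM in no-ARID1A with empty vector and 247 and 238 with EWS-FLI1, 176 and 213 in WT with empty vector and 182 and 149.7 with EWS-FLI1, and 100.1 and 100.3 in ΔIDR1b with empty vector and 80.9 and 89.5 with EWS-FLI1. All 4 ΔIDR1b values lie below every WT value, and all WT values below every no-ARID1A value. Its log2 fold change in ΔIDR1b against no-ARID1A was -1.28 (SE 0.11, adjusted p = 6.36e-11) with empty vector and -1.51 (SE 0.11, adjusted p = 1.34e-12) with EWS-FLI1, which is a 2.43-fold and a 2.85-fold decrease. In WT against no-ARID1A it was -0.32 (SE 0.11, adjusted p = 0.0476) with empty vector and -0.55 (SE 0.11, adjusted p = 0.000446) with EWS-FLI1. With empty vector the call was lost when any 1 of 7 libraries was left out (adjusted p 0.0664 to 0.481). These were either no-ARID1A library with either vector, either ΔIDR1b library with empty vector, and WT replicate 1 with empty vector. ΔIDR1b was also below WT, at log2 fold changes of -0.96 and -0.96 with the 2 vectors (adjusted p = 1.04e-07 and 1.78e-07).

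CLK4, a less abundant kinase of the same family, was at 56.0 and 62.0 CPM in no-ARID1A with empty vector and 62.3 and 68.7 with EWS-FLI1, 47.2 and 53.3 in WT with empty vector and 50.6 and 34.2 with EWS-FLI1, and 27.7 and 29.8 in ΔIDR1b with empty vector and 26.1 and 26.2 with EWS-FLI1. Again no ΔIDR1b library overlapped the others, while WT with EWS-FLI1 held 1 library well below its partner. The log2 fold change in ΔIDR1b against no-ARID1A was -1.04 (SE 0.14, adjusted p = 9.54e-07) with empty vector and -1.33 (SE 0.15, adjusted p = 9.34e-09) with EWS-FLI1. WT against no-ARID1A was called with EWS-FLI1 only, at -0.63 (SE 0.14, adjusted p = 0.00184), where empty vector gave -0.23 (SE 0.14, adjusted p = 0.311). ΔIDR1b against WT was -0.81 and -0.70 (adjusted p = 0.000102 and 0.00091); with EWS-FLI1 and without WT replicate 1 the adjusted p was 0.064. As a class the pair held 0.0282 to 0.0309% of counts in no-ARID1A, 0.0178 to 0.0256% in WT and 0.0115 to 0.0138% in ΔIDR1b.

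**Figure D2:**
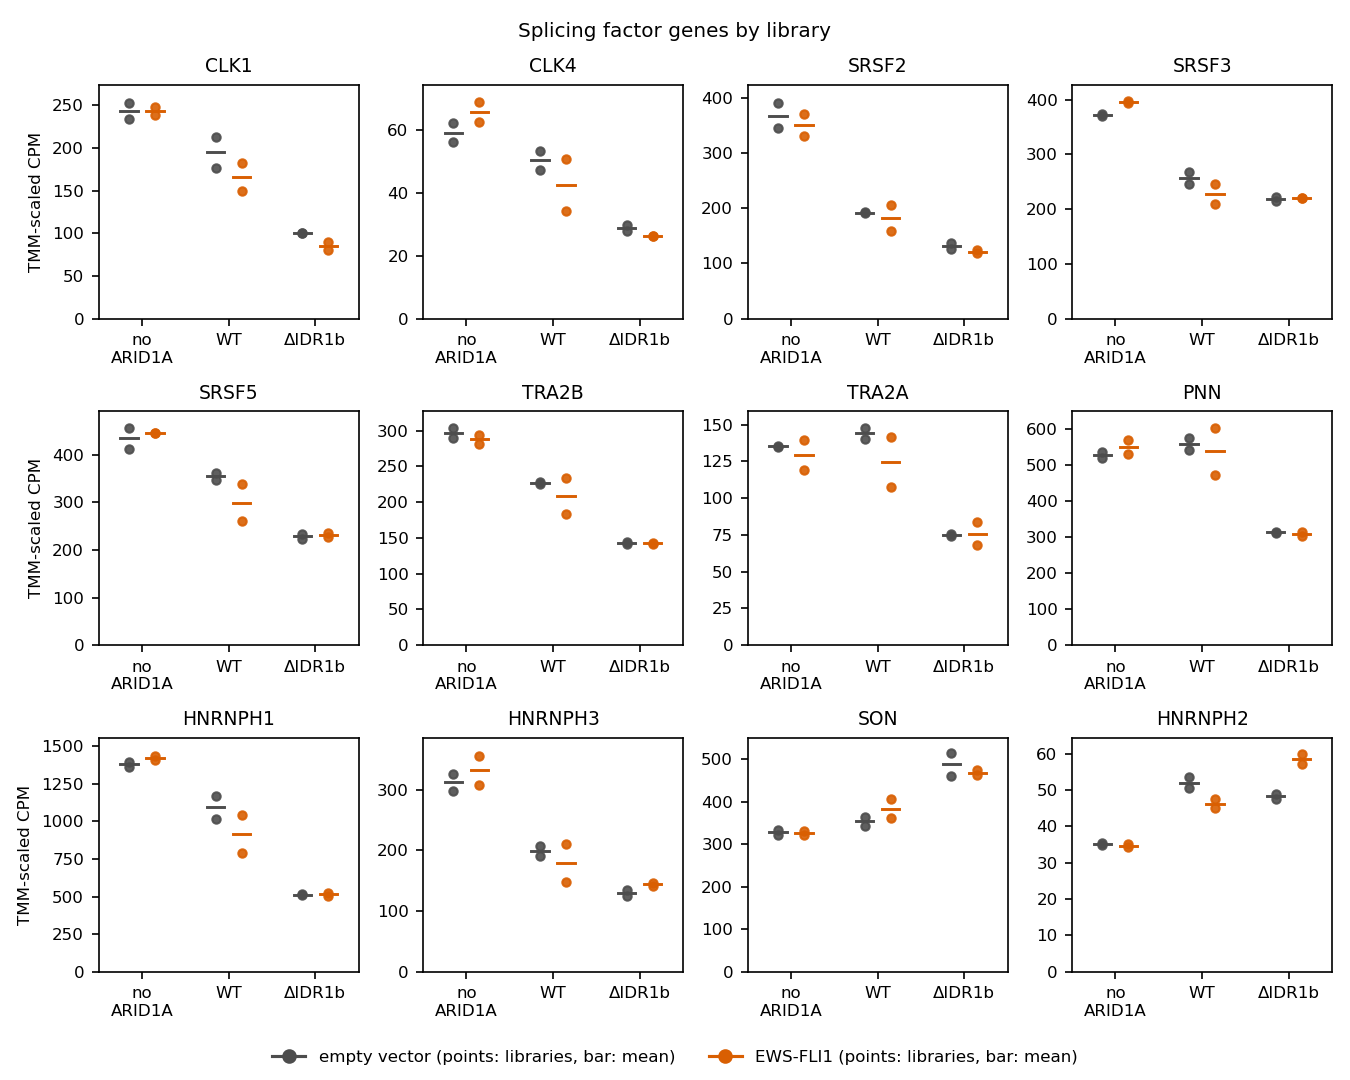
TMM-scaled CPM (y axis, from 0) of 12 genes in each of the 12 libraries, by ARID1A state (x axis); points are libraries, bars the mean of 2, grey empty vector and orange EWS-FLI1. CLK1, CLK4, SRSF2, SRSF5, TRA2B and HNRNPH1 step down from no-ARID1A to WT to ΔIDR1b, TRA2A and PNN are low in ΔIDR1b alone, and SON and HNRNPH2 rise.

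None of the 12 SR genes was called higher in any comparison of states, where 6.5 to 18.1% of all tested genes were. In ΔIDR1b against no-ARID1A 9 were lower with each vector (75%), against 16.8 and 17.9% of all tested genes. In WT against no-ARID1A 4 and 5 were lower (33.3 and 41.7%), against 5.19 and 8.36%. SRSF2 (SC35), a classical SR protein of nuclear speckles (chr17:76734115-76737333, minus strand), was at 345 and 390.0 CPM in no-ARID1A with empty vector and 371 and 330.0 with EWS-FLI1, 190.5 and 193 in WT with empty vector and 206 and 158 with EWS-FLI1, and 126 and 137 in ΔIDR1b with empty vector and 123 and 119 with EWS-FLI1. The 3 states did not overlap with either vector. SRSF2 fell in WT, at log2 fold changes of -0.94 (SE 0.11, adjusted p = 2.60e-07) with empty vector and -0.94 (SE 0.11, adjusted p = 1.37e-07) with EWS-FLI1. In ΔIDR1b its log2 fold changes were -1.49 (SE 0.11, adjusted p = 2.15e-12) with empty vector and -1.53 (SE 0.11, adjusted p = 9.12e-13) with EWS-FLI1. ΔIDR1b lay below WT, at log2 fold changes of -0.55 and -0.59 (adjusted p = 0.000389 and 0.000272). Of its exonic bases 27.7% are shared with MFSD11 and MIR636 in the annotation, and fragments there were not counted, so its level is uncertain.

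SRSF3, the smallest of the classical SR proteins, was at 370.3 and 374 CPM in no-ARID1A with empty vector and 394 and 398 with EWS-FLI1, 246 and 268 in WT with empty vector and 246 and 209.5 with EWS-FLI1, and 222 and 214 in ΔIDR1b with empty vector and 221 and 221 with EWS-FLI1. The no-ARID1A libraries stood above all others, and WT and ΔIDR1b came close to each other. SRSF3 fell in WT, at log2 fold changes of -0.53 (SE 0.10, adjusted p = 0.000273) with empty vector and -0.80 (SE 0.10, adjusted p = 2.99e-07) with EWS-FLI1. In ΔIDR1b its log2 fold changes were -0.77 (SE 0.10, adjusted p = 1.47e-07) with empty vector and -0.84 (SE 0.10, adjusted p = 2.37e-08) with EWS-FLI1. The difference between ΔIDR1b and WT was -0.24 (SE 0.10, adjusted p = 0.0727) with empty vector and -0.04 (SE 0.10, adjusted p = 0.789) with EWS-FLI1, not called with either vector.

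SRSF1 (SF2/ASF), the founding SR protein, was lower in WT than in ΔIDR1b in its means: it was at 100.4 and 113 CPM in no-ARID1A with empty vector and 121 and 118 with EWS-FLI1, 75.4 and 74.7 in WT with empty vector and 89.5 and 65.1 with EWS-FLI1, and 87.8 and 83.0 in ΔIDR1b with empty vector and 95.8 and 87.4 with EWS-FLI1. The no-ARID1A libraries were the highest with each vector. Of the exonic bases of SRSF1 35.1% are shared with other annotated genes, and fragments there were not counted, so its level is uncertain. SRSF1 fell in WT, at log2 fold changes of -0.51 and -0.63 (adjusted p = 0.00472 and 0.000335), and in ΔIDR1b, at log2 fold changes of -0.32 and -0.38 (adjusted p = 0.0361 and 0.0124). ΔIDR1b against WT gave 0.19 (SE 0.12, adjusted p = 0.277) with empty vector and 0.24 (SE 0.12, adjusted p = 0.158) with EWS-FLI1. The WT call with empty vector was lost without no-ARID1A replicate 2 (adjusted p = 0.118) or WT replicate 1 (adjusted p = 0.0565).

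SRSF5 (SRp40) and SRSF7 (9G8) followed the stepwise order. SRSF5 was at 412 and 456 CPM in no-ARID1A with empty vector and 445 and 445 with EWS-FLI1, 347 and 361 in WT with empty vector and 337 and 261 with EWS-FLI1, and 234 and 223 in ΔIDR1b with empty vector and 235 and 227 with EWS-FLI1. It fell in ΔIDR1b, at log2 fold changes of -0.93 and -0.94 (adjusted p = 1.58e-08 and 9.50e-09), and in WT it was called with EWS-FLI1 (-0.57, SE 0.10, adjusted p = 0.000137) and missed the threshold with empty vector (-0.29, SE 0.10, adjusted p = 0.0574). ΔIDR1b was lower than WT, at log2 fold changes of -0.63 and -0.37 (adjusted p = 2.77e-05 and 0.011); with EWS-FLI1 the adjusted p was 0.247 without WT replicate 1 and 0.0654 without ΔIDR1b replicate 2. SRSF7 fell in ΔIDR1b, at log2 fold changes of -0.55 and -0.59 (adjusted p = 5.21e-05 and 1.51e-05), and in WT, at log2 fold changes of -0.30 and -0.36 (adjusted p = 0.0442 and 0.0089). The WT call of SRSF7 with empty vector did not survive leaving out any 1 of 10 libraries, with an adjusted p of 0.05 to 0.284, and with EWS-FLI1 it was lost without no-ARID1A replicate 1 (0.13) or WT replicate 2 (0.0771).

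Other SR genes fell in ΔIDR1b without a call in WT. In ΔIDR1b against no-ARID1A these were SRSF4 (SRp75; -0.32 and -0.58), SRSF10, a splicing repressor when dephosphorylated (-0.49 and -0.42), and SRSF11 (-0.30 and -0.53), each called with both vectors. SRSF12 was called with EWS-FLI1 (-0.65) and SRSF9 with empty vector (-0.28). Of the exonic bases of SRSF9 46.7% are shared with GATC, so its level is uncertain. With GC and length trends removed, SRSF10 and SRSF11 were also called lower in WT with EWS-FLI1 (adjusted p = 0.0151 and 0.000462). SRSF6 and SRSF8 missed the threshold in all 6 comparisons of states in the main fit. SRSF6 (SRp55) ranged from 79.9 to 107.5 CPM over all libraries, with log2 fold changes in ΔIDR1b of 0.01 and 0.17 (adjusted p = 0.972 and 0.266). Nearly equal means do not show that SRSF6 stayed the same, as the standard error of each difference was 0.12. Without WT replicate 2, SRSF6 had a log2 fold change of 0.37 in WT against no-ARID1A with EWS-FLI1. With GC and length trends removed, SRSF8 was called lower in ΔIDR1b against no-ARID1A with empty vector (-0.35, adjusted p = 0.0265).

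Among the 6 SR-related genes TRA2B, an activator that binds GAA-rich exons, was at 290.1 and 304 CPM in no-ARID1A with empty vector and 294 and 282 with EWS-FLI1, 228 and 225 in WT with empty vector and 235 and 184 with EWS-FLI1, and 144 and 141 in ΔIDR1b with empty vector and 142 and 143 with EWS-FLI1. No 2 states overlapped with either vector. TRA2B fell in ΔIDR1b, at log2 fold changes of -1.06 (SE 0.10, adjusted p = 1.04e-09) with empty vector and -1.02 (SE 0.10, adjusted p = 2.09e-09) with EWS-FLI1. In WT its log2 fold changes were -0.39 (SE 0.10, adjusted p = 0.0105) with empty vector and -0.46 (SE 0.10, adjusted p = 0.00163) with EWS-FLI1; with empty vector no single-library omission within the comparison kept the call (adjusted p 0.0528 to 0.13).

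TRA2A, the paralog of TRA2B, and PNN (pinin), a speckle protein bound to the exon junction complex, fell in ΔIDR1b while WT was not called. TRA2A was at 136 and 135 CPM in no-ARID1A with empty vector and 139.6 and 119 with EWS-FLI1, 140.4 and 148 in WT with empty vector and 141 and 107 with EWS-FLI1, and 74.0 and 75.8 in ΔIDR1b with empty vector and 83.5 and 68.1 with EWS-FLI1. PNN was at 534 and 519 CPM in no-ARID1A with empty vector and 568 and 529 with EWS-FLI1, 540.4 and 574 in WT with empty vector and 602 and 471 with EWS-FLI1, and 311 and 314 in ΔIDR1b with empty vector and 312 and 303 with EWS-FLI1. With EWS-FLI1 the WT and no-ARID1A libraries of both genes overlapped, with empty vector the WT libraries stood slightly higher, and every ΔIDR1b library lay below both states. In ΔIDR1b against WT TRA2A had log2 fold changes of -0.94 (SE 0.12, adjusted p = 7.40e-07) with empty vector and -0.71 (SE 0.12, adjusted p = 7.98e-05) with EWS-FLI1. Those of PNN were -0.83 (SE 0.10, adjusted p = 2.42e-07) with empty vector and -0.80 (SE 0.10, adjusted p = 6.87e-07) with EWS-FLI1. Against no-ARID1A the log2 fold changes in ΔIDR1b were -0.85 and -0.77 for TRA2A and -0.75 and -0.83 for PNN, whereas WT against no-ARID1A gave 0.09 and -0.06 for TRA2A and 0.08 and -0.03 for PNN.

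SRRM1 (SRm160), a splicing coactivator, was lower in ΔIDR1b than in no-ARID1A (-0.46 and -0.60) and than in WT (-0.45 and -0.49), called each time. SRRM2 (SRm300) was called lower in ΔIDR1b with EWS-FLI1 only (-0.39, SE 0.09, adjusted p = 0.000716). SON, the other large speckle scaffold, went the opposite way and was at 323 and 333 CPM in no-ARID1A with empty vector and 323 and 330.1 with EWS-FLI1, 343 and 364 in WT with empty vector and 362 and 406 with EWS-FLI1, and 461 and 515 in ΔIDR1b with empty vector and 462 and 475 with EWS-FLI1. Every ΔIDR1b library lay above every other. SON rose in ΔIDR1b by log2 fold changes of 0.57 (SE 0.09, adjusted p = 1.38e-05) with empty vector and 0.52 (SE 0.09, adjusted p = 4.72e-05) with EWS-FLI1, and WT against no-ARID1A gave 0.11 and 0.23 (adjusted p = 0.508 and 0.0815). Over WT, SON was higher by log2 fold changes of 0.46 and 0.29 (adjusted p = 0.000427 and 0.0302); with EWS-FLI1 this call was lost without WT replicate 1 or without any 1 of the ΔIDR1b and no-ARID1A libraries of that vector (adjusted p 0.0511 to 0.166).

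Of the 21 tested hnRNP genes, 10 fell and 1 rose in ΔIDR1b with empty vector, and 9 fell and 3 rose with EWS-FLI1. The lower shares were 47.6 and 42.9%, against 16.8 and 17.9% of all tested genes. The higher shares were 4.76 and 14.3%, against 16.4 and 18.1%. In WT 3 fell and 3 rose, and 6 fell and 3 rose. There 14.3 and 28.6% were lower, against 5.19 and 8.36%, and 14.3% higher with each vector, against 6.5 and 9.72%. HNRNPH1 (chr5:179614178-179634784, minus strand), which binds G-rich runs near splice sites, was at 1362 and 1396 CPM in no-ARID1A with empty vector and 1407 and 1434 with EWS-FLI1, 1017 and 1170.4 in WT with empty vector and 1038 and 787 with EWS-FLI1, and 508 and 516 in ΔIDR1b with empty vector and 522 and 506 with EWS-FLI1. The ΔIDR1b values kept within 506 to 522 CPM, below all other libraries. Its log2 fold change was -1.43 (SE 0.10, adjusted p = 8.50e-13) with empty vector and -1.47 (SE 0.10, adjusted p = 3.72e-13) with EWS-FLI1 in ΔIDR1b, and -0.33 (SE 0.10, adjusted p = 0.0261) with empty vector and -0.64 (SE 0.10, adjusted p = 2.38e-05) with EWS-FLI1 in WT. The WT call with empty vector was lost without no-ARID1A replicate 1 (adjusted p = 0.101), no-ARID1A replicate 2 (0.17) or WT replicate 1 (0.305). ΔIDR1b was below WT, at log2 fold changes of -1.10 and -0.83 (adjusted p = 1.46e-09 and 5.03e-07).

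Its paralog HNRNPH3 was at 298 and 326 CPM in no-ARID1A with empty vector and 355 and 308 with EWS-FLI1, 191 and 207 in WT with empty vector and 210.1 and 148 with EWS-FLI1, and 134 and 125 in ΔIDR1b with empty vector and 147 and 142 with EWS-FLI1. It fell in WT, at log2 fold changes of -0.65 (SE 0.12, adjusted p = 0.000265) with empty vector and -0.89 (SE 0.12, adjusted p = 1.29e-06) with EWS-FLI1. In ΔIDR1b its log2 fold changes were -1.27 (SE 0.12, adjusted p = 3.61e-10) with empty vector and -1.20 (SE 0.12, adjusted p = 9.46e-10) with EWS-FLI1. The step from WT to ΔIDR1b was called with empty vector (-0.62) and not with EWS-FLI1 (-0.31, SE 0.12, adjusted p = 0.0607). HNRNPH2, another gene of this family, moved the other way and was at 35.5 and 34.9 CPM in no-ARID1A with empty vector and 34.2 and 35.1 with EWS-FLI1, 50.5 and 53.5 in WT with empty vector and 47.4 and 45.0 with EWS-FLI1, and 48.9 and 47.6 in ΔIDR1b with empty vector and 57.0 and 60.0 with EWS-FLI1. No no-ARID1A library reached 36 CPM and every other library lay above 45. HNRNPH2 rose in WT by log2 fold changes of 0.56 (SE 0.12, adjusted p = 0.00208) with empty vector and 0.42 (SE 0.12, adjusted p = 0.016) with EWS-FLI1; with EWS-FLI1 the call was lost without either no-ARID1A library (adjusted p = 0.136 and 0.094). In ΔIDR1b it rose by log2 fold changes of 0.45 (SE 0.12, adjusted p = 0.00401) with empty vector and 0.76 (SE 0.12, adjusted p = 8.69e-06) with EWS-FLI1. Of its exonic bases 15.8% are shared with the readthrough gene RPL36A-HNRNPH2.

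HNRNPDL and HNRNPD (AUF1), a pair of paralogs that bind AU-rich RNA, both fell. HNRNPDL was at 618 and 642 CPM in no-ARID1A with empty vector and 626 and 623 with EWS-FLI1, 485 and 510.1 in WT with empty vector and 495 and 371 with EWS-FLI1, and 289.9 and 282 in ΔIDR1b with empty vector and 283 and 299 with EWS-FLI1. It was lower in ΔIDR1b, at log2 fold changes of -1.14 (SE 0.10, adjusted p = 2.08e-10) with empty vector and -1.10 (SE 0.10, adjusted p = 4.11e-10) with EWS-FLI1, and in WT, at log2 fold changes of -0.34 and -0.53 (adjusted p = 0.0264 and 0.000381), the first of which was lost when any 1 of the 4 libraries compared was left out (0.0822 to 0.203). HNRNPD was lower in ΔIDR1b, at log2 fold changes of -0.65 and -0.71, and so was HNRNPU (SAF-A), a scaffold protein that binds chromatin-associated RNA (-0.68 and -0.62). Both were called in WT with EWS-FLI1 (-0.52 and -0.39) and not with empty vector (-0.24, adjusted p = 0.116, and -0.28, adjusted p = 0.0515).

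HNRNPA1, HNRNPA2B1 and HNRNPA3, whose products form the core of hnRNP particles, fell in ΔIDR1b without a call in WT, although DESeq2 called HNRNPA1 lower in WT with EWS-FLI1 (adjusted p = 0.0337). HNRNPA1, a repressor of exon inclusion, was at 1864 to 2055 CPM in no-ARID1A, 1599 to 1872 in WT and 1162 to 1293 in ΔIDR1b. Only the first and second of these ranges overlapped. The log2 fold change of HNRNPA1 in ΔIDR1b against no-ARID1A was -0.72 (SE 0.09, adjusted p = 1.00e-07) with empty vector and -0.69 (SE 0.09, adjusted p = 1.67e-07) with EWS-FLI1. HNRNPA2B1 (-0.43 and -0.39) and HNRNPA3 (-0.41 and -0.42) were called as well. HNRNPA1 has many processed pseudogenes, and 54.8% of HNRNPA3 exonic bases are shared with other annotated genes, so both levels are uncertain. HNRNPA0 of the same group was not called (ΔIDR1b 0.03 and -0.02, adjusted p = 0.867 and 0.891).

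HNRNPAB rose in WT by log2 fold changes of 0.32 and 0.39 (adjusted p = 0.0292 and 0.00535), and was called in ΔIDR1b with EWS-FLI1 (0.33) and not with empty vector (0.22, SE 0.10, adjusted p = 0.081). The WT call with empty vector was lost without WT replicate 1 (0.379) or either no-ARID1A library (0.115 and 0.205), and that with EWS-FLI1 without no-ARID1A replicate 2 (0.0796). HNRNPF, a relative of HNRNPH1, was called higher with EWS-FLI1 in WT (0.37) and ΔIDR1b (0.35). HNRNPC was higher in WT with empty vector (0.29) and lower in ΔIDR1b than in WT (-0.35). HNRNPUL2 was called lower in ΔIDR1b with both vectors (-0.42 and -0.61), and HNRNPR was lower in ΔIDR1b than in WT (-0.43 and -0.40). Of the exonic bases of HNRNPUL2 44.3% are shared with HNRNPUL2-BSCL2, so its level is uncertain. HNRNPA1L3, a low-count copy of HNRNPA1, was called in WT with EWS-FLI1 alone (-0.66, SE 0.23, adjusted p = 0.0411). HNRNPK, HNRNPL, HNRNPLL, HNRNPM and HNRNPUL1 missed the threshold in all 6 comparisons of states, and each passed it in some alternative fit. DESeq2 called HNRNPK higher in WT with both vectors (adjusted p = 0.0342 and 0.0339) and HNRNPM lower in WT with EWS-FLI1 (adjusted p = 0.0391). With GC and length trends removed, HNRNPL (-0.22 and -0.23) and HNRNPUL1 (-0.29 and -0.34) were called lower in ΔIDR1b against no-ARID1A and HNRNPM (-0.25 and -0.30) in WT.

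The other 5 hnRNP genes could not be tested. HNRNPCL1, HNRNPCL2, HNRNPCL3 and HNRNPCL4, copies related to HNRNPC, held 14, 1, 0 and 2 fragments in all 12 libraries together, and HNRNPA1L2 held 0, its exons being covered in full by other annotated genes. At these counts no difference was detectable.

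In 11 of the 41 tested genes the libraries were ordered no-ARID1A above WT above ΔIDR1b with no overlap, with both vectors: CLK1, CLK4, HNRNPD, HNRNPDL, HNRNPH1, HNRNPH3, HNRNPU, SRSF2, SRSF5, SRSF7 and TRA2B. Of all tested genes 4.43% had this order. In 28 members every no-ARID1A library lay above every ΔIDR1b library of the same vector, against 26.1% of all genes, and in 4 below, against 26.5%. Over the 41 members, the log2 fold changes with empty vector and with EWS-FLI1 had a Pearson r of 0.964 for ΔIDR1b against no-ARID1A and 0.901 for WT against no-ARID1A, as a description. The 2 comparisons with no-ARID1A share those libraries, and their values above stand side by side for that reason. ARID1A RNA was higher in ΔIDR1b than in WT; its part in the difference between these states was not tested.

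EWS-FLI1 left the splicing factor genes without a call. With edgeR, 0 of 41 were called in no-ARID1A, WT or ΔIDR1b cells, or over the average of the 3, against 0.0442, 0.221, 0.172 and 0.466% of all tested genes, a background too low to expect a call among 41. At an unadjusted p under 0.05 there were 0, 6, 4 and 1 members, and DESeq2 also called 0 (0, 3, 4 and 1 at an unadjusted p under 0.05). Log2 fold changes ran from -0.09 (SRSF8) to 0.25 (HNRNPUL2) in no-ARID1A, from -0.50 (HNRNPA1L3) to 0.12 (SON) in WT and from -0.24 (SRSF12) to 0.28 (HNRNPH2) in ΔIDR1b. Interaction tests, which ask if 2 states responded unequally to the fusion, called 0 members in each of 3 pairs of states, against 0.0245, 0.0196 and 0% of all genes, with 2, 0 and 1 members at an unadjusted p under 0.05 by edgeR and 2, 1 and 1 by DESeq2.

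The WT cells with EWS-FLI1 held 1 library apart from the other: replicate 2 was below replicate 1 for HNRNPH1 (787 against 1038 CPM), CLK4 (34.2 against 50.6) and HNRNPDL (371 against 495). Without replicate 1, EWS-FLI1 against empty vector in WT gave 5 members lower, CLK4 (-0.55, adjusted p = 0.0401), HNRNPH1 (-0.47, 0.00219), SRSF5 (-0.44, 0.0122), HNRNPH3 (-0.43, 0.0299) and HNRNPDL (-0.42, 0.0122), named after their values were seen. FLI1 RNA was also highest in these cells. Whether the fusion's level or this library moved those genes was not tested.

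**Figure D3:**
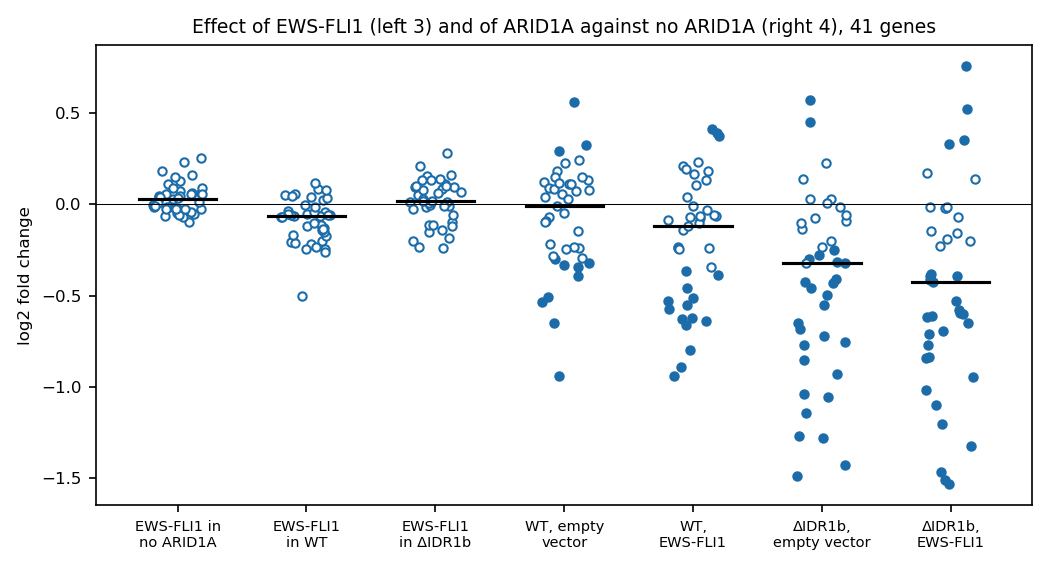
Log2 fold changes (y axis) of the 41 tested genes for the effect of EWS-FLI1 in no-ARID1A, WT and ΔIDR1b cells (left 3 columns) and for WT or ΔIDR1b against no-ARID1A (right 4 columns); filled points have an adjusted p under 0.05 and bars are medians. The left columns hold no filled point, and the median reaches -0.42 for ΔIDR1b with EWS-FLI1.

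Nuclear-retained long noncoding RNAs moved with the states as well. NEAT1, the scaffold RNA of paraspeckles, was at 2225 to 2564 CPM in no-ARID1A, 1002 to 1333 in WT and 767 to 965 in ΔIDR1b. MALAT1, an RNA of nuclear speckles, was at 31.5 to 46.5, 8.40 to 21.3 and 2.85 to 5.62 CPM, where fragments shared with its antisense gene were not counted. NEAT1 fell in ΔIDR1b, at log2 fold changes of -1.23 with empty vector (adjusted p = 6.69e-12) and -1.70 with EWS-FLI1 (adjusted p = 2.35e-15). NEAT1 also fell in WT, at log2 fold changes of -0.93 and -1.32 (adjusted p = 2.38e-08 and 4.97e-12). The part of nuclear RNA content or RNA quality in the fall of the splicing factor genes was not tested.

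**Figure D4:**
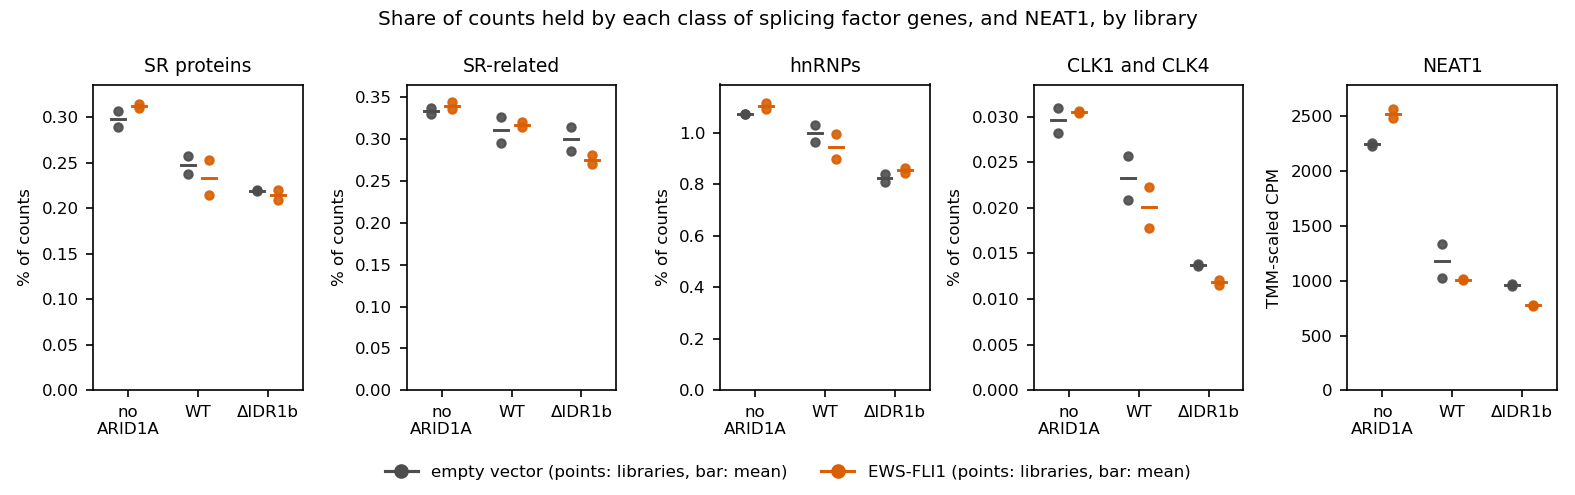
Percent of all counts held by the SR, SR-related, hnRNP and CLK genes in each library, and TMM-scaled CPM of NEAT1 (y axes from 0), by ARID1A state; points are libraries, bars the mean of 2, grey empty vector and orange EWS-FLI1. SR, SR-related, hnRNP and CLK shares and NEAT1 are highest in the no-ARID1A libraries. The CLK share falls from 0.0282 to 0.0309% there to 0.0115 to 0.0138% in ΔIDR1b.

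Against no-ARID1A, the 9 lists of other splicing genes did not move as one. In ΔIDR1b against no-ARID1A, 12 of 20 other RS-domain genes were lower with both vectors and 2 higher, where 13.3% of all tested genes were lower and 12.9% higher. RSRP1 (-1.26 and -1.47 with empty vector and EWS-FLI1) fell most among them and SCAF1 (0.60 and 0.41) rose most. Of 14 Sm and LSm genes, which form the protein ring of spliceosomal snRNPs, 8 were lower and 0 higher, led by SNRPB (-1.02 and -0.99). The U2 snRNP and U2AF list had 6 of 16 lower and 2 higher, with SNRPA1 (-1.19 and -1.27) and SF3B4 (0.45 and 0.54) at the ends, and the U1 list 2 of 8 lower, led by PRPF39 (-1.12 and -1.27). By contrast the U4/U6.U5 tri-snRNP list had 5 of 15 higher and 2 lower, with PRPF4 (0.65 and 0.68) and SNU13 (-0.77 and -0.58) at the ends. The PRP19 complex list had 1 of 10 lower, CWC15 (-0.91 and -0.79), and 1 higher, CRNKL1 (0.58 and 0.47). The longest list, other splicing regulators, had 8 of 33 tested genes lower and 3 higher, with TIAL1 (-0.75 and -0.79) and NOVA2 (0.57 and 0.74) at the ends.

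The list of kinases and import factors for SR proteins had 3 of 10 lower and 1 higher in the same comparison with both vectors: CLK3 (-0.83 and -0.99) fell like CLK1 and CLK4, and SRPK1, the cytoplasmic SR kinase, was higher by log2 fold changes of 0.27 and 0.34. Of 15 exon junction and nonsense-mediated decay factors 4 were lower and 1 higher: SMG8 rose by log2 fold changes of 1.18 and 1.00 and its partner SMG9 fell, at log2 fold changes of -1.001 and -1.038. In WT against no-ARID1A, where 3.52% of all tested genes were lower and 4.84% higher with both vectors, the 9 lists held 4 lower and 11 higher genes. The lower ones were 1 of 20 RS-domain genes (BCLAF1, -0.36 and -0.56), 1 of 14 Sm and LSm genes (SNRPB, -0.47 and -0.56), 1 of 10 kinases and import factors (CLK2, -0.39 and -0.29) and 1 of 15 decay factors (SMG9, -0.41 and -0.55). Higher were 4 of 15 tri-snRNP genes, led by CD2BP2 (0.60 and 0.47), 3 of 33 other regulators, led by KHDRBS3 (0.58 and 0.41), 2 of 10 PRP19 genes, led by SNW1 (0.41 and 0.43), 1 of 8 U1 genes (SNRPA, 0.34 and 0.54) and 1 of 16 U2 genes (SF3B5, 0.36 and 0.34). In ΔIDR1b against WT, 7.74% of all tested genes were lower and 5.86% higher with both vectors. Each of the 9 lists held more lower than higher genes there, but 1 of 10 PRP19 and 2 of 15 tri-snRNP genes are near the share of all genes. Lower were 9 of 20 RS-domain, 3 of 14 Sm and LSm, 4 of 8 U1, 6 of 16 U2, 2 of 15 tri-snRNP and 1 of 10 PRP19 genes. So were 11 of 33 other regulators, 3 of 10 kinases and import factors and 4 of 15 decay factors. Only 1 other regulator and 2 decay factors were higher.

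The annotation shows how many of these genes make alternative transcripts that are not productive. Of 40 tested members found in GENCODE 29, 80% had a transcript annotated for nonsense-mediated decay, against 41.4% of the 13852 tested protein-coding genes and 45.2% of those at 10 CPM or more. A retained-intron transcript was annotated in 77.5%, against 56.1 and 61.2%, and both kinds in 67.5%, against 31.8 and 36.0%. The members also had more annotated transcripts, a median of 12 against 7 and 8, whose part in these shares was not tested. A count per gene adds up all these transcripts, so a fall in counts does not tell productive RNA from the other kinds.

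As a median 13.01% of the members' exonic bases were found only in retained-intron transcripts, against 3.36% in tested protein-coding genes. Among those coding genes at 10 CPM or more it was 5.32%. The median was 28.9% in the 23 members lower in ΔIDR1b with both vectors and 9.64% in the other 17. TRA2B (74.1%), CLK1 (52.2%), HNRNPH1 (48.9%) and CLK4 (39.0%) had large shares and fell, but SRSF2 (3.02%) and HNRNPH3 (0%) fell as well. Of HNRNPH3 exonic bases 56.5% lay outside its protein-coding transcripts all the same. HNRNPL (59.2%) had a large share and no call between states in the main fit. SRSF9 (67.9%) was called in ΔIDR1b against no-ARID1A with empty vector only. Across genes, this share and the log2 fold change in ΔIDR1b against no-ARID1A had a Pearson r of -0.30 with empty vector and -0.32 with EWS-FLI1 over 40 members, and -0.16 and -0.18 over all 13852 coding genes. Over the 10051 coding genes at 10 CPM or more r was -0.19 and -0.22. The genes share libraries and are not independent, and the relation is given as a description; whether introns were retained more or less was not measured by these counts.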

How the data were processed

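Poly(A)-selected RNA of 12 libraries (6 groups of 2) was analysed. The deposited values are raw counts of fragments per gene name, made with featureCounts 2.0.1 on GENCODE 41 exons (GRCh38.p13) per the file headers: paired fragments with both ends mapped (-p -B), no strand option, and no option to count multi-mapping fragments or those shared by overlapping genes. Reads from close copies, overlapping genes or antisense genes are therefore lost or cannot be told apart. STAR, SAMtools and edgeR are named in the submitters' processing notes.

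The counts were used as deposited. Genes passing filterByExpr (minimum count 10, minimum total 15) were scaled by TMM and fitted over all 12 libraries with 1 mean per group by edgeR 4.0.16 (limma 3.58.1, R 4.3.3), quasi-likelihood F-test, Benjamini-Hochberg over all 20377 genes. Standard errors are on the log2 scale. The biological coefficient of variation was 10.1%. The 13 contrasts were 6 between states, 4 for EWS-FLI1 and 3 interactions. Alternatives used DESeq2 1.42.0, other scalings, no filter, only the libraries compared, a replicate block, GC and length corrections, a fold threshold and each library left out. The code was tested on simulated data.

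Named genes are members called the same way with both vectors and without overlap between libraries, at most 10 per pair of states and direction by mean absolute log2 fold change, plus the highest and lowest per kilobase of each class, and from each other list the largest called rise and fall; other members are named for completeness. The members and lists were chosen with earlier results of these data known. Transcript types come from GENCODE 29 (GRCh38) and promoters from RefSeq (GRCh38.p14); a genome and protein sequences were not used here. The result of 1 marker gene is not reported here. Counting error is the only error that library depth covers.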

Additional observations from a re-analysis of the deposited data

How the results depend on the processing

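For the 68 results on named members, 1374 of 1428 values under alternatives kept direction and side of the threshold, 54 kept direction and lost the call, and 0 reversed. The fold threshold was not among these alternatives. Named members were chosen for calls in the main fit, so no alternative could add a call. Where a log2 change of 1 or more in size was also required, 0 members were called in WT against no-ARID1A with either vector. In ΔIDR1b against no-ARID1A 7 were called with either vector, and in ΔIDR1b against WT 1 and 0. The members' shares were 0%, 17.1%, and 2.44 and 0%. Of all tested genes 2.56 and 4.46%, 11.4 and 12.6%, and 6.84 and 5.59% passed in the same order. Members were above all genes in ΔIDR1b against no-ARID1A only. ΔIDR1b against WT with EWS-FLI1 (19 members) gave 11 when only the libraries compared were fitted and 31 with GC and length trends removed. The share of all tested genes called moved too, from 18.6% to 8.96 and 26.7%. Calls lost outside left-out libraries were, when only the libraries compared were fitted, HNRNPH2 (adjusted p = 0.0797) and SRSF7 (0.0671) in WT against no-ARID1A and SON (0.192) and SRSF5 (0.119) in ΔIDR1b against WT, all with EWS-FLI1; HNRNPAB in WT with empty vector under upper-quartile scaling (0.0874); and with no filter CLK1 (0.0542) and SRSF7 (0.0848) in WT with empty vector and SON in ΔIDR1b against WT with EWS-FLI1 (0.061). The cause was not tested.

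Leaving out each library in turn gave 4 to 17 members in WT against no-ARID1A with empty vector and 12 to 21 with EWS-FLI1, 21 to 29 and 26 to 30 in ΔIDR1b against no-ARID1A, and 20 to 28 and 13 to 28 in ΔIDR1b against WT. The first count was 5 without no-ARID1A replicate 1, 4 without its replicate 2 and 4 without WT replicate 1. EWS-FLI1 in WT gave 0 to 5 (5 without WT replicate 1 of the EWS-FLI1 group) and the interaction of WT with EWS-FLI1 0 to 1 (HNRNPH1, -0.52, adjusted p = 0.0375, without the same library). With 1 library left in a group, it is assumed to vary like the others. The share of all tested genes called also moved with the library left out. Named calls in ΔIDR1b against no-ARID1A, 12 with each vector, held with every library left out; in WT with empty vector 4 of 11 did (SRSF2, SRSF3, HNRNPH3 and HNRNPH2).

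The labels number the libraries of each group, without saying what a number shares, and only 2 numbers exist. Deviations of same-numbered libraries correlated at 0.106 to 0.415 within a vector and at -0.225 to -0.00771 across vectors, as a hint from the data. A replicate block over all libraries moved no count by more than 1 member. A replicate block within each vector gave 17 and 23 members in WT against no-ARID1A, 30 and 30 in ΔIDR1b against no-ARID1A, and 27 and 28 in ΔIDR1b against WT, and 0 for EWS-FLI1. The members' shares between states were 41.5 and 56.1%, 73.2 and 73.2%, and 65.9 and 68.3%. Of all tested genes 17.7 and 23.8%, 37.6 and 40%, and 30 and 24.8% were called. The share of all genes thus rose over the main fit in each comparison of states as well. With this block, calls with both vectors were gained in WT by HNRNPK and HNRNPF (higher) and by HNRNPU, HNRNPD and SRSF5 (lower), in ΔIDR1b against no-ARID1A by HNRNPR and SRRM2 (lower) and HNRNPAB (higher), and in ΔIDR1b against WT by HNRNPH3, HNRNPC, HNRNPU, SRSF7, SRSF10 and SRSF11 (lower). With the block and GC and length trends removed, EWS-FLI1 lowered 4 members in WT (HNRNPD, HNRNPA0, HNRNPH1 and SRSF9), 1 in ΔIDR1b (SRSF4) and 1 on average (HNRNPA0), and ΔIDR1b against WT with EWS-FLI1 gave 31. Called either way in these fits were 1.04, 0.564, 0.991 and 28.2% of all tested genes, against 9.76, 2.44, 2.44 and 75.6% of the members.

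Under upper-quartile scaling the members split 1 higher and 12 lower in WT against no-ARID1A with empty vector and 3 and 18 with EWS-FLI1, and all genes 898 higher and 1381 lower, and 1505 and 2062, where TMM gave 1324 and 1057, and 1981 and 1703. For ΔIDR1b against WT with empty vector it gave 2791 higher and 2184 lower over all genes, against 2267 and 2728 with TMM. With 2 libraries per group, small differences, and any in the 5 genes near 0 counts, were below what this depth can show.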
